A study of Arabidopsis thaliana with 8 samples.

Results

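The change from 4 h to 8 h after heat priming was followed in Arabidopsis seedlings, as the difference between 2 of the 8 Affymetrix ATH1 arrays of the study, over all 22746 probe sets that are not array controls. Both arrays carried RNA of pools of whole 5-day-old wild-type Col-0 seedlings, which are plants of the standard laboratory accession with no transgene. Priming was 1.5 h at 37 °C, then 1.5 h at 22 °C and then 45 min at 44 °C, with the heat given in darkness, and the plants went back to 22 °C under 16 h of light and 8 h of dark on sucrose medium until harvest. The unprimed seedlings had no heat and were harvested at the same 4 h and 8 h. The other 4 arrays are primed and unprimed seedlings at 24 h and 48 h. Values are log2 signals that begin at 2.0, so a difference of 1 is 2-fold, and a probe set is the group of short probes that reads 1 transcript or a few near-identical ones. Each condition is 1 array, so the differences have no replicate check and no test, and a probe set was counted as risen or fallen when it was at least 2-fold higher or lower at 8 h.

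Heat unfolds proteins. Plant cells answer through heat shock factors (HSFs), which switch on genes of chaperones. Small HSPs hold unfolded proteins, HSP70 and HSP90 refold them, and HSP100 proteins such as HSP101 pull aggregates apart. After the heat these genes are switched off at different speeds while photosynthesis, growth and secondary metabolism are taken up again. The transcripts that last longest have been tied to thermomemory, the state in which a plant withstands later heat better.

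In primed seedlings 1245 probe sets (5.47%) were at least 2-fold higher at 8 h than at 4 h, and 1203 (5.29%) were at least 2-fold lower. In the unprimed pair 459 (2.02%) were higher and 308 (1.35%) were lower, and most of the probe sets that moved after heat stayed within 2-fold there. The median primed difference was 0.00 over all probe sets. When each array was centred on the median of 15 reference genes, which moved the median of all primed differences to 0.16, the primed counts became 1613 higher and 918 lower, that is 63.7% higher among those past the limit in place of 50.9%. The same centring changed the unprimed counts to 2084 and 76 (96.5% higher in place of 59.8%), because the median of the list followed 1 gene, ACT8, whose unprimed values were 11.63 at 4 h and 11.03 at 8 h. Centring on the mean of the same genes gave 1430 higher and 1059 lower in primed seedlings and 508 and 266 in unprimed ones. With the median centring the unprimed rises of most lists were more numerous than the counts given here, which are on the deposited scale. Of the 22746 probe sets, 5717 were within 0.05 of 2.0, called the floor here, in both primed arrays and could not be measured.

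The array controls and tissue markers gave these readings. The light harvesting and Rubisco list, for shoot tissue, had a median level of 14.28 in the primed 4 h array and 13.59 in the primed 8 h array. The unprimed median levels of this list were 13.90 and 13.25. Taken probe set by probe set, the median difference was -0.46 in primed and only -0.09 in unprimed seedlings. PYK10, a root β-glucosidase and the brightest of the 13 root markers, was at 12.87 and 13.46. The medians of the root list were only 4.34 and 4.57, with 5.73 and 6.57 in unprimed seedlings. The 14 seed storage and embryo genes had medians of 2.03 and 2.14, with 4.14 in unprimed seedlings at 4 h. Of 13 root marker probe sets 1 rose and 2 fell, and of 27 cell division probe sets none passed the limit in either direction, with 1 higher under each other scaling. In a pool of whole seedlings, fewer cells of a type and less RNA per cell cannot be told apart.

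The levels of both sets were followed over all 8 arrays. The median of the 1245 risen probe sets was 6.12 at 4 h and 7.92 at 8 h, and that of the 1203 fallen ones 7.95 and 6.27. These values chose the sets, so the choice fixes their order. In arrays that did not choose them the medians of the risen set were 7.86 (unprimed 4 h), 8.04 (unprimed 8 h), 8.04 (primed 24 h) and 7.90 (primed 48 h). Those of the fallen set were 6.17, 6.09, 6.20 and 6.02 in the same order.

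**Figure D1:**
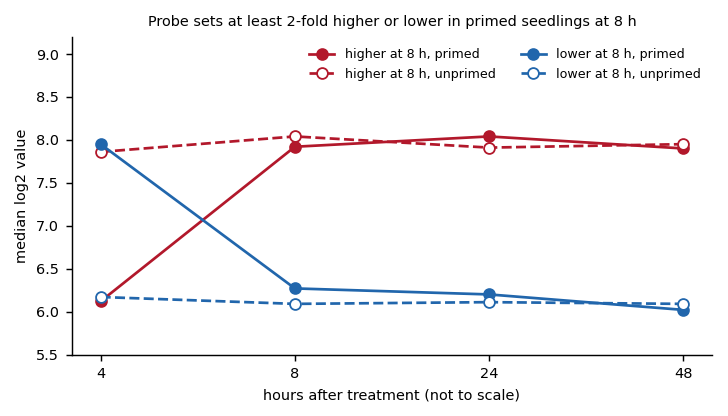
Median log2 value (vertical axis) of the 1245 probe sets that rose (red) and the 1203 that fell (blue) between the primed 4 h and 8 h arrays, at the 4 harvest times (horizontal axis, not to scale). Solid lines with filled circles are primed and dashed lines with open circles unprimed seedlings. The primed medians at 4 h, 6.12 and 7.95, and at 8 h, 7.92 and 6.27, are values that chose the sets, and the unprimed medians at 4 h are 7.86 and 6.17.

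At 24 h some of these probe sets differed between primed and unprimed seedlings. Of the risen probe sets, 147 (11.8%) were at least 2-fold higher in primed than in unprimed seedlings at 24 h and 53 (4.26%) were lower, where 2.76% and 1.67% of all probe sets were. Of the fallen ones, 79 (6.57%) were higher and 64 (5.32%) lower. At 48 h the shares among risen probe sets were 3.94% higher and 2.17% lower, and among fallen ones 1.66% and 2.66%, against 0.747% and 0.932% of all probe sets.

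The heat shock factor genes fell. Of the 21 probe sets of the family 10 fell (47.6%, against 5.29% of all probe sets) and 0 rose, or 2 rose with either centring. The median difference of the family was -0.71, and it was -1.25 over the 18 above the floor in at least 1 of the primed arrays. In unprimed seedlings 1 of the 21 rose and 0 fell, with a median of 0.00.

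HSFA2, the factor that prolongs the heat response, read 13.52 at 4 h and 10.28 at 8 h in primed seedlings and 3.11 and 4.53 in unprimed ones. That is a 9.45-fold fall, and at 24 h the primed array read 2.75 and the unprimed 2.40. HSFA7A read 11.43 and 7.29 with 7.52 and 6.73 in unprimed seedlings, so its primed 8 h value lay within the unprimed range. HSFA7B went from 6.23 to 2.01, which is the floor, and was at 2.0 in all 4 unprimed arrays. HSFA3, which acts downstream of DREB2A, was the brightest of the list at 15.23 and stood at 13.50 at 8 h (3.32-fold lower), still above the 9.39 of unprimed seedlings.

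The other factors that fell belong to several branches of the family. HSFB1, HSFB2A and HSFB2B are class B factors, most of which lack an activation domain and act as repressors. HSFB2A went from 10.30 to 7.65, HSFB2B from 5.76 to 3.11 and HSFB1 from 14.47 to 13.24. Among the class A1 factors, the early activators of the response, HSFA1E fell from 12.0 to 9.90 and HSFA1D from 9.87 to 8.59, while HSFA1A read 7.17 and 6.46 and HSFA1B 7.62 and 7.25. HSFA6B, which has a role in abscisic acid responses, fell from 9.43 to 7.42. The largest positive differences of the list, 0.94 for both HSFA4A and HSFB4, were under the limit.

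Genes that act beside the HSFs fell too. Of the 8 probe sets of other heat regulators 4 fell (50.0%, against 5.29% of all probe sets) and 0 rose. DREB2A and DREB2B encode activators of heat and drought genes. DREB2B read 13.13 and 8.93 in primed seedlings at 4 h and 8 h (18.4-fold lower), with 5.98 and 5.97 in unprimed ones. DREB2A went from 13.37 to 10.60 (6.82-fold lower), and a probe set shared by DREB2C and a neighbouring homologue from 12.90 to 9.85. BAG6, a co-chaperone, fell from 15.01 to 13.57. The co-activator MBF1C read 15.08 and 14.62, under the limit, and JUB1, a NAC factor named in thermomemory work, was at the floor in both primed arrays.

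Chaperone transcripts mostly stayed high over the same 4 h. Of 17 small HSP probe sets 2 fell (11.8%, against 5.29% of all probe sets) and 0 rose, with a median of -0.30. When centred on the median of the reference genes 1 rose and 1 fell. Their primed levels lay between 10.50 and 15.76 at 4 h and between 10.12 and 15.39 at 8 h. The highest value of any probe set in these arrays is 15.77, so the brightest small HSPs stood near the top of the scale, and how far their differences are compressed there was not tested.

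The 2 small HSP genes that fell were HSP23.6, of the mitochondria, and HSP18.5. HSP23.6 read 14.28 and 12.82 (2.75-fold lower) and also fell in unprimed seedlings, from 6.29 to 4.03. HSP18.5 read 13.31 and 12.23 (2.11-fold lower). HSP21, the plastid small HSP studied for thermomemory, read 14.00 and 14.62, a rise under the limit, and it was at 2.0 in every unprimed array. HSP22.0, of the endoplasmic reticulum, read 14.23 and 14.15, and the cytosolic HSP17.6C-CI read 15.57 and 15.39. At 24 h 16 of the 17 were still at least 2-fold above unprimed seedlings.

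Falls also reached the ATP-driven chaperones. In the HSP70 and HSP110 family 5 of 16 probe sets fell (31.2%, against 5.29% of all probe sets) and 0 rose. When centred on the median of the reference genes 2 fell. HSP70-3, a cytosolic member, read 13.45 and 12.24 in primed and 9.47 and 10.84 in unprimed seedlings, so the arms moved in opposite directions. BIP3, the heat-inducible HSP70 of the endoplasmic reticulum, went from 8.36 to 7.02, the mitochondrial mtHSC70-2 from 12.90 to 11.81, HSP70-17 from 13.65 to 12.52 and HSP70T-2 from 12.88 to 11.87. The constitutive HSC70-1, at 14.74 and 14.45, and the heat-inducible HSP70B, at 15.39 at 8 h, stayed within 2-fold.

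HSP101, the cytosolic disaggregase required for acquired thermotolerance, fell from 14.26 to 12.85 (2.66-fold), with 6.66 and 7.60 in unprimed seedlings and 8.71 in primed seedlings at 24 h. CLPB4, its mitochondrial relative, fell from 12.36 to 11.22, a difference of -1.14 that became -0.98 with centring on the median of the reference genes. The plastid CLPB3 read 14.06 and 13.60 and did not pass the limit. In the HSP90 and co-chaperone list 1 of 16 fell (6.25%, near the 5.29% of all probe sets). It was the HSP70 nucleotide exchange factor FES1A, from 13.17 to 11.56 (3.05-fold). HSP90.1, the heat-inducible cytosolic HSP90, read 14.79 and 13.97. ROF1, a peptidyl-prolyl isomerase named as a thermomemory component, read 13.78 and 13.34.

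Genes for protein folding in the endoplasmic reticulum fell with the HSFs. Of 27 probe sets 12 fell (44.4%) and 1 rose (3.70%), with a median of -0.72, where 5.29% and 5.47% of all probe sets did. In unprimed seedlings 0 fell and 2 rose, where 1.35% and 2.02% of all probe sets did. ERDJ3A, a lumenal J-domain partner of BiP, read 10.99 and 7.45 in primed seedlings at 4 h and 8 h (11.6-fold lower) and 3.74 and 4.47 in unprimed ones. BZIP28, a membrane-tethered activator of the unfolded protein response, went from 9.96 to 8.27, the co-chaperone P58IPK from 11.75 to 10.28 and the nucleotide sugar transporter UTR1 from 13.12 to 11.06. NAC103, a NAC factor of the same response, moved the other way, from 2.02 at 4 h to 4.85 at 8 h, and was at the floor in the other 6 arrays. BIP3, the probe set of BIP1 and BIP2, and HSP90.7 count in this list and in the lists above.

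Protein breakdown genes shifted less. All 22 proteasome probe sets were higher at 8 h, by 0.26 to 1.05, with a median of 0.77 (1.70-fold), but 1 passed the 2-fold limit, or 5 to 7 under the other scalings. It was a probe set shared by PBE1 and a second locus that went from 12.04 to 13.09. The same list had a median of -0.05 in unprimed seedlings, which turned to 0.55 with centring on the median of the reference genes. None of 13 autophagy probe sets passed the limit. Of the 12 FtsH proteases, FTSH8, a thylakoid protease subunit, rose from 8.87 to 9.97, and it rose alike in unprimed seedlings, from 9.04 to 10.18. FTSH6, the plastid protease studied with HSP21, read 6.49 and 7.13 in primed seedlings, 5.18 at 24 h and 2.01 in both unprimed arrays of 4 h and 8 h, and its difference was under the limit.

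**Figure D2:**
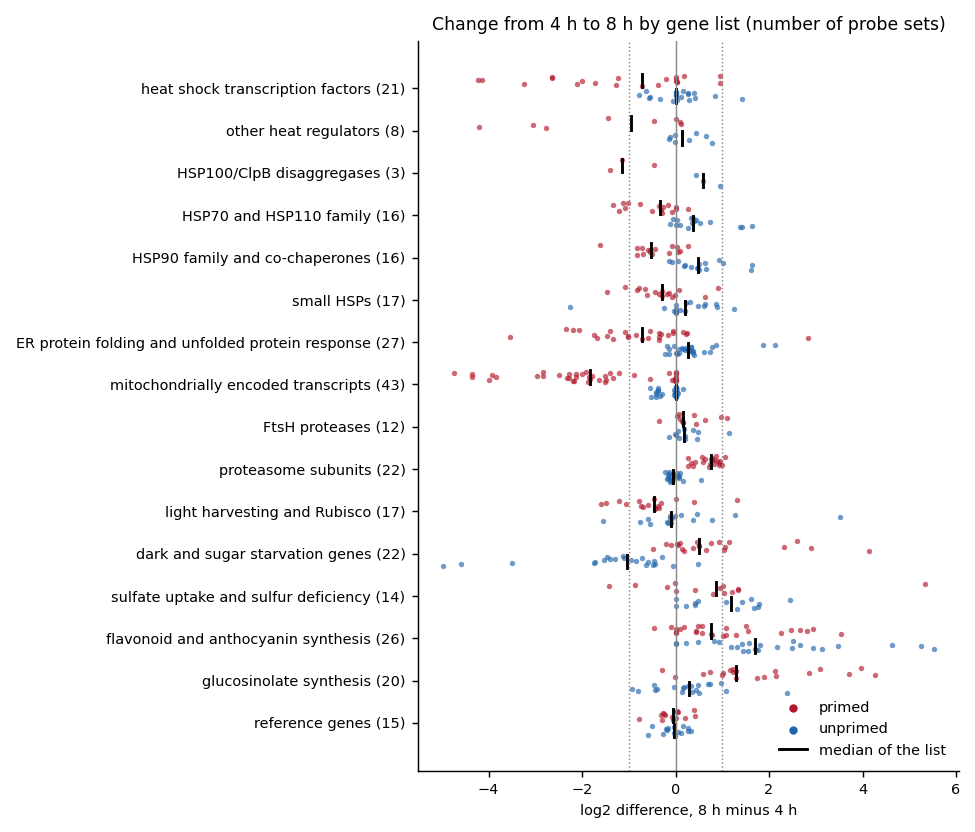
Log2 difference of 8 h minus 4 h (horizontal axis) for every probe set of 16 gene lists (rows, number of probe sets in brackets), with primed seedlings in red, unprimed seedlings in blue, the median of each list as a black bar and the 2-fold limits as dotted lines. The primed medians are -0.71 for heat shock factors, -0.30 for small HSPs, -1.83 for mitochondrially encoded transcripts and 1.29 for glucosinolate synthesis.

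Transcripts of the mitochondrial genome fell, and those of the plastid genome did not. Mitochondrial DNA encodes subunits of the respiratory chain and many open reading frames of unknown function. Of the 43 probe sets that each read 1 mitochondrial locus, 30 fell (69.8%, against 5.29% of all probe sets) and 0 rose, with a median of -1.83. By contrast 0 of 72 plastid probe sets moved past the limit in either direction (median -0.04). In unprimed seedlings 0 of the 43 passed the limit.

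COX1, cytochrome c oxidase subunit 1 (ATMG01360), read 12.74 and 11.34 in primed seedlings at 4 h and 8 h and 11.20 and 10.82 in unprimed ones. COX2 (ATMG00160) read 10.05 and 8.53, against 4.13 and 3.72 in unprimed seedlings, and NADH dehydrogenase subunit 9 (ATMG00070) read 8.89 and 6.61 against 2.85 and 2.83. The NADH dehydrogenase subunit 4 probe set (ATMG00580) was an exception, with 9.63 and 9.08 in primed and 9.52 and 9.23 in unprimed seedlings. The largest fall was that of the open reading frame ATMG01350, from 6.79 to 2.05. Of the 43 probe sets 9 were at the floor in primed seedlings at 4 h, 22 at 8 h, and 26 in unprimed seedlings at 4 h.

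Control readings of RNA were set beside these transcripts. The control probe set for 25S ribosomal RNA, also of RNA that normally carries no poly(A) tail, read 3.69 in the primed 4 h array and 2.04 in each of the other 7. The 5S ribosomal RNA control read 7.36 and 6.34 in primed seedlings at 4 h and 8 h, and also went from 6.79 to 6.18 in unprimed ones. The signal at the 5′ end less that at the 3′ end was -7.08 and -7.17 for actin, -2.88 and -2.84 for GAPDH and -2.24 and -2.83 for ubiquitin in the primed 4 h and 8 h arrays. For ubiquitin the other 7 arrays lay between -3.28 and -2.59, so the primed 4 h array was highest by a small margin. For GAPDH the unprimed 24 h array stood apart, at -3.86. Of these readings the 25S one thus set the primed 4 h array apart most clearly. The part of these control readings in the fall of the mitochondrial transcripts was not tested.

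**Figure D3:**
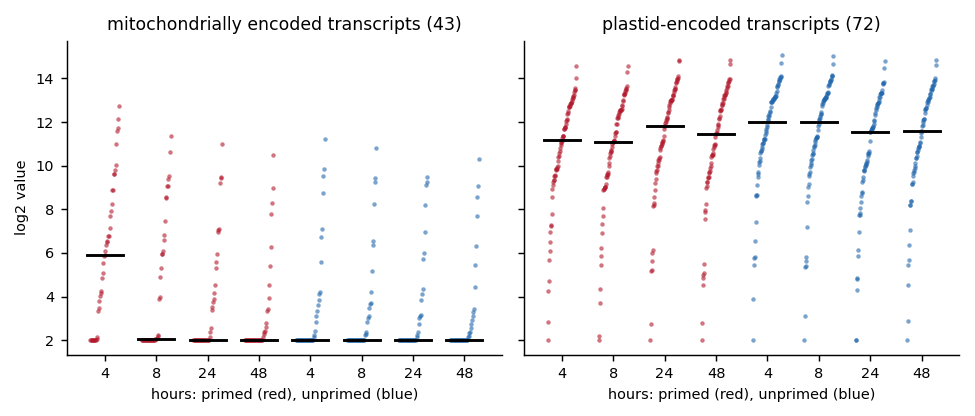
Log2 values (vertical axis) of the 43 mitochondrially encoded probe sets (left) and the 72 plastid-encoded ones (right) in each of the 8 arrays (horizontal axis, hours, with primed in red and unprimed in blue), and black bars for medians. The mitochondrial median is 5.92 in primed seedlings at 4 h and 2.05 at 8 h, and the plastid medians there are 11.20 and 11.11.

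The highest rises were those of genes of several kinds. ELI3-2, an alcohol dehydrogenase first found as an elicitor-activated gene, rose most among probe sets of at least 4 in both arrays. It read 4.24 at 4 h and 10.65 at 8 h in primed seedlings (85.0-fold), 2.22 in both unprimed arrays of those hours and 7.49 in primed seedlings at 24 h. It was thus above the unprimed level at both hours. So was COR15A, a cold-induced stromal protein, with 4.34 and 8.12 in primed and 2.35 in both unprimed arrays, and 5.20 at 24 h.

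Other leading transcripts were below the unprimed level at 4 h and near it at 8 h. The dirigent-type protein AT4G13580 read 5.31 and 10.76 in primed and 11.29 and 10.70 in unprimed seedlings. The peroxidase gene Prx37 went from 4.89 to 9.38, with 9.19 and 9.38 in unprimed seedlings. TAS2, the precursor of trans-acting small RNAs, went from 4.35 to 8.49, with 8.98 and 8.99 in unprimed seedlings. The same held for the pectin methylesterase gene ATPMEPCRB (4.04 to 8.03, unprimed 7.97 and 8.34) and the wall protein gene PELPK2 (6.38 to 10.16, unprimed 10.18 and 10.04). MAPKKK14, a protein kinase gene, went from 5.24 to 9.21 and rose in unprimed seedlings too, from 8.31 to 9.64. CHX17, a cation/proton exchanger gene, rose from 5.54 to 10.58 while it fell from 12.10 to 9.52 in unprimed seedlings.

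CYP81D11, a cytochrome P450 induced by foreign chemicals, rose from 8.45 to 12.97, with 11.59 and 12.51 in unprimed seedlings. Among transcripts below 4 in 1 primed array, the largest rises were those of BGLU28, a β-glucosidase induced by sulfur shortage (2.01 to 7.34, at the floor in unprimed seedlings), the GDSL lipase gene AT5G37690 (3.15 to 8.44), the dirigent gene AT2G21100 (2.95 to 8.24), the carboxypeptidase gene AT5G22860 (2.67 to 7.83) and the basic chitinase gene HCHIB (3.13 to 8.15, unprimed 9.68 and 9.70).

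Enzyme families of the wall were looked up by words of the file's annotation, after their values had been seen, so their counts only describe. Dirigent proteins guide the coupling of lignin and lignan precursors, and of their 15 probe sets 9 rose and 1 fell. Of 60 class III peroxidases 14 rose (23.3%) and 3 fell (5.00%), of 65 GDSL lipases 18 (27.7%) and 2 (3.08%), and of 138 pectin-modifying enzymes 19 (13.8%) and 4, where 5.47% and 5.29% of all probe sets did. Of 12 chitinases 6 rose and 0 fell. ESB1 and PER64, which build the lignin of the Casparian strip in the root endodermis, rose from 6.79 to 9.08 and from 4.14 to 7.85, and CASP1, its membrane scaffold, from 9.03 to 10.08. All 3 ended at 8 h close to the unprimed 8 h values of 8.98, 8.15 and 9.69.

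Glucosinolate synthesis had the largest share of risen probe sets among the 40 lists. Glucosinolates are the sulfur-rich defence compounds of the cabbage family, built from methionine or tryptophan by chain elongation enzymes, P450s of the CYP79 and CYP83 groups and sulfotransferases under the control of MYB factors. Of 20 probe sets 16 rose (80.0%, against 5.47% of all probe sets) and 0 fell, with a median of 1.29 (2.45-fold). In unprimed seedlings 2 of the 20 rose, or 8 with centring on the median of the reference genes. Median levels were 8.14 at 4 h and 9.64 at 8 h in primed seedlings and 10.05 and 9.95 in unprimed ones.

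CYP79B2, which starts the tryptophan branch, read 6.09 and 9.80 in primed seedlings (13.1-fold higher) and 10.33 and 9.90 in unprimed ones. The probe set of CYP79F1 and CYP79F2, which start the methionine branch, read 3.17 and 7.43, with 8.59 and 9.66 in unprimed seedlings and 9.29 in primed seedlings at 24 h. So the tryptophan gene had reached the unprimed level at 8 h and the methionine pair had not. CYP83B1 rose from 8.69 to 11.54, the plastid importer gene BAT5 from 4.29 to 7.37, and the side-chain oxidase gene FMOGSOX1 from 2.0 to 5.97. The regulators MYB51, MYB34 and MYB28 rose from 7.28 to 9.42, 6.27 to 8.17 and 8.34 to 9.64. MAM3, a chain elongation enzyme, read 10.52 and 10.23, and CYP79B3 7.94 and 8.52.

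Sulfur and flavonoid genes rose in both arms. Over all probe sets 5.47% rose and 5.29% fell in primed seedlings, and 2.02% and 1.35% in unprimed ones. Of 14 probe sets of sulfate uptake and sulfur deficiency 6 rose (42.9%) and 1 fell (7.14%, median 0.88), and 8 rose and 0 fell in unprimed seedlings. APR3, an enzyme of sulfate reduction, read 11.05 and 12.25 in primed and 10.17 and 11.94 in unprimed seedlings. Of 26 flavonoid and anthocyanin probe sets 12 rose (46.2%) and 0 fell (median 0.77), whereas 20 rose in unprimed seedlings (median 1.71). DFR, which leads into anthocyanins, read 2.0 and 4.25 in primed and 2.34 and 7.88 in unprimed seedlings, and the transferase gene TT19 read 3.28 and 6.09 against 3.98 and 9.24. CHS, the entry enzyme, read 10.97 and 11.98 against 11.49 and 12.94.

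**Figure D4:**
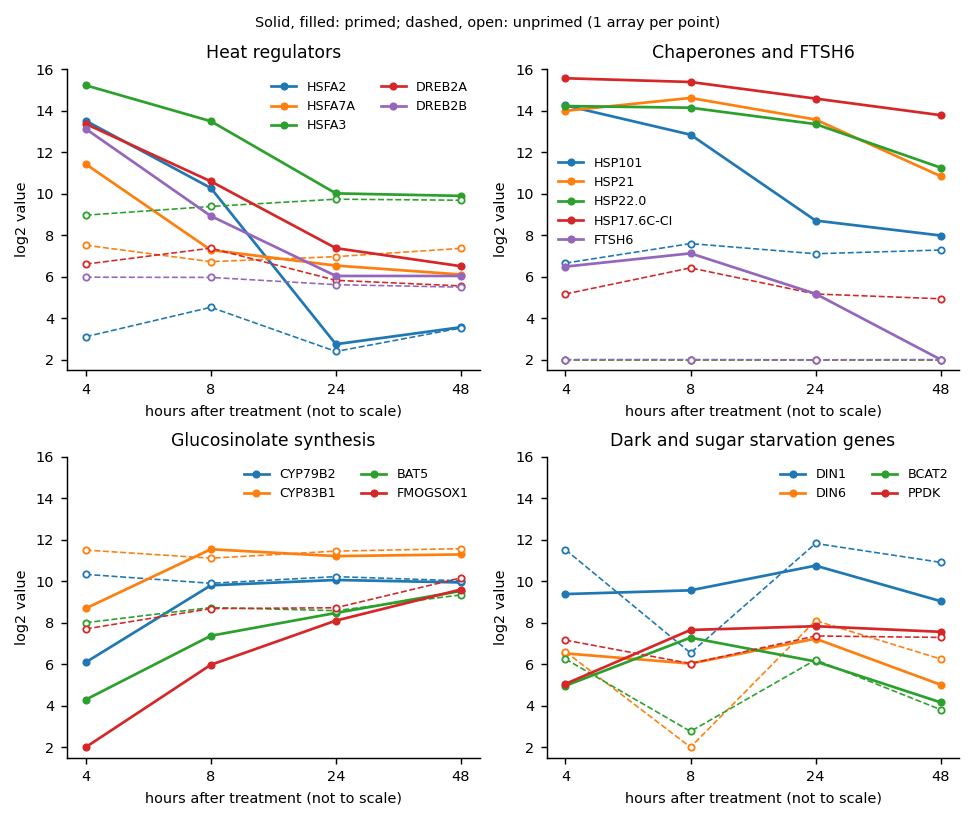
Log2 values (vertical axis) of 18 genes over the 4 harvest times (horizontal axis, not to scale), with primed seedlings as solid lines and unprimed ones as dashed lines, 1 array per point. HSFA2 falls from 13.52 to 10.28 and HSP21 reads 14.00 and 14.62 in primed seedlings, CYP79B2 rises from 6.09 to 9.80, and DIN1 reads 11.52 and 6.54 in unprimed seedlings against 9.38 and 9.56 in primed ones.

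Dark and sugar starvation genes had rises in primed and falls in unprimed seedlings. These genes are switched on when sugar runs short, as in long darkness. In primed seedlings 7 of 22 rose (31.8%, against 5.47% of all probe sets) and 0 fell (median 0.51). In unprimed seedlings 0 rose and 11 fell (median -1.04, against falls of 1.35% of all probe sets). With centring on the median of the reference genes 1 rose and 5 fell there. The primed change exceeded the unprimed one by at least 2-fold for 16 of the 22 and fell short of it for 0. Of all probe sets 6.68% and 6.77% did so. With that centring the list counts were 13 and 0, and its median was 1.16 in place of 1.59. The counts over all probe sets then were 773 and 3186, or 19.5% of those past the limit higher in place of 49.6%.

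DIN1, a dark-inducible gene, read 9.38 and 9.56 in primed seedlings at 4 h and 8 h and 11.52 and 6.54 in unprimed ones. DIN6, the glutamine-dependent asparagine synthetase, read 6.52 and 6.03 against 6.60 and 2.0. For both genes the difference between arms thus came from the unprimed pair. BCAT2, an enzyme of branched-chain amino acid breakdown, rose from 4.96 to 7.28 in primed seedlings and fell from 6.25 to 2.76 in unprimed ones. PPDK, pyruvate orthophosphate dikinase, rose from 5.05 to 7.65 and fell from 7.16 to 6.03 in unprimed seedlings, and DIN11, an oxidoreductase gene, rose from 2.69 to 5.59 and fell from 6.09 to 4.35. MCCA, a subunit of an enzyme of leucine breakdown, rose from 10.02 to 11.16 and fell from 11.83 to 10.37. These 4 of the 22 passed the limit both ways. DIN2, a β-glucosidase, rose from 2.08 to 6.21 and was at most 2.12 in unprimed seedlings. No source used here gives the clock hour of harvest, or says whether unprimed seedlings were darkened during the heat, so in the primed pair time of day and recovery cannot be told apart.

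**Figure D5:**
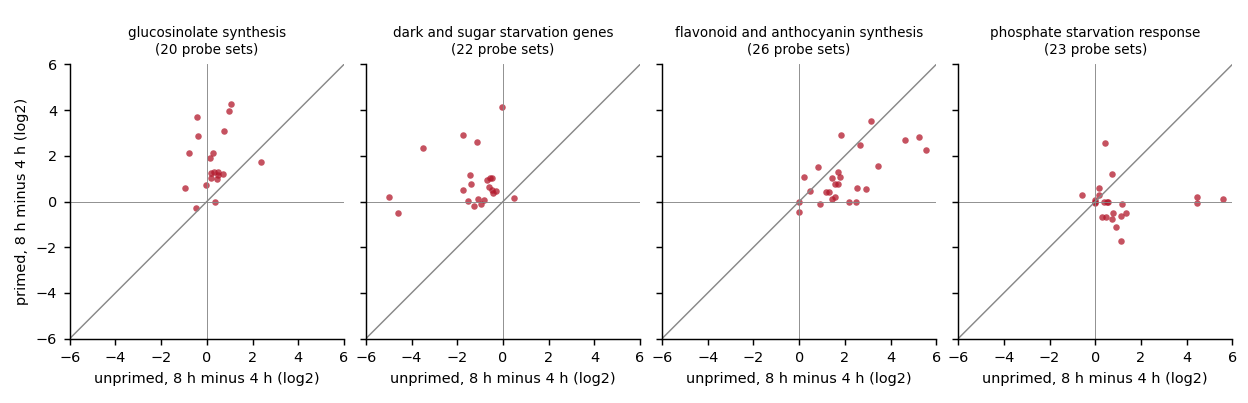
Log2 difference of 8 h minus 4 h in primed (vertical axis) against unprimed seedlings (horizontal axis) for the probe sets of 4 lists, with a grey diagonal for equal change. The primed and unprimed medians are 1.29 and 0.30 for glucosinolate synthesis, 0.51 and -1.04 for dark and sugar starvation genes, 0.77 and 1.71 for flavonoid synthesis and 0.00 and 0.56 for the phosphate starvation response.

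The probe sets that moved in both arms were counted. Of the 1245 risen in primed seedlings 153 (12.3%) also rose in unprimed ones, which is 33.3% of the 459 there, and 52 (4.18%) fell. Of the 1203 fallen 49 (4.07%) also fell in unprimed seedlings, which is 15.9% of the 308 there, and 39 (3.24%) rose. In unprimed seedlings 2.02% of all probe sets rose and 1.35% fell, so shared and opposite movement both lay above these shares. Over the 17320 probe sets above the floor in at least 1 of the 4 arrays, the differences had Pearson's r of 0.10 and Spearman's rho of 0.07, given as a description across probe sets of the same arrays.

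The phosphate starvation list changed in unprimed seedlings and hardly in primed ones. Of 23 probe sets 7 rose (15 with centring on the median of the reference genes) and 0 fell in the unprimed pair. In the primed pair 2 rose and 2 fell (8.70% each). Over all probe sets 2.02% rose and 1.35% fell in the unprimed pair, and 5.47% and 5.29% in the primed pair. SPX1, a phosphate sensor protein, read 10.58 and 8.84 in primed and 10.20 and 11.32 in unprimed seedlings. PS2, a phosphatase, read 2.49 and 2.69 against 4.76 and 9.21. In the iron list IRT1, the root iron importer, rose from 2.04 to 4.85 in primed seedlings, below the unprimed 7.88 and 7.41.

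Photosynthesis transcripts were lower at 8 h. Of the 17 light harvesting and Rubisco probe sets 4 fell (LHCB2.3, LHCB3, LHCB4.2 and LHCB6, all antenna proteins of photosystem II) and 1 rose, LHCB7. LHCB2.3 read 9.78 and 8.19 in primed and 8.12 and 8.91 in unprimed seedlings, and 13.33 in primed seedlings at 24 h. All 17 chlorophyll synthesis probe sets were lower at 8 h (16 when centred on the median of the reference genes) but only GUN4, a porphyrin-binding regulator, passed the limit, from 10.06 to 8.75. Of 9 chlorophyll breakdown genes 2 rose (22.2%, or 1 gene after quantile normalization) and 0 fell. They were CLH2, a chlorophyllase (5.21 to 8.11), and SGR1, which extracts magnesium from chlorophyll (6.96 to 7.98).

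The clock genes PRR7 and PRR5 differed in level between the arms at both hours, and LHY at 8 h. The median primed less unprimed difference was 0.79 at 4 h and 0.04 at 8 h for the morning list. For the evening list it was 0.34 and 0.53. PRR7, a daytime repressor of the clock, read 9.99 and 8.53 in primed and 4.86 and 2.89 in unprimed seedlings. PRR5 read 11.16 and 9.36 against 7.46 and 7.83, and LHY, a morning factor, was at the floor in both primed arrays while unprimed seedlings read 2.03 and 5.40. Of 16 morning probe sets 5 fell (31.2%) and 2 rose (12.5%) in primed seedlings, while 1 fell and 5 rose in unprimed ones. Of 14 evening probe sets 4 fell (28.6%) in primed seedlings, led by the blue-light receptor gene LKP2, from 6.24 to 3.35. Over all probe sets 5.29% fell and 5.47% rose in the primed pair, and 1.35% and 2.02% in the unprimed pair.

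Hormone and sugar lists split. GOLS2, galactinol synthase 2, read 7.87 and 3.35 in primed seedlings (22.9-fold lower) and was at 2.0 in the other 6 arrays, whereas its paralogue GOLS1 read 11.12 and 11.51. In the abscisic acid and cold list 4 of 30 rose and 4 fell (13.3% each), or 2 fell with either centring. Of all probe sets 5.47% rose and 5.29% fell. The abscisic acid hydroxylase genes CYP707A3 and CYP707A4 moved apart, the first from 6.59 to 8.53 and the other from 5.53 to 2.94. Of 15 early auxin genes 5 fell (33.3%) and 1 rose (6.67%), and IAA19, an auxin repressor, went from 5.45 to 2.87. LOX2, an enzyme of jasmonate synthesis, read 5.18 and 4.32 in primed but 8.84 and 12.09 in unprimed seedlings.

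The counts of the remaining lists were small or split between directions. Several of these lists exceeded both shares over all probe sets, 5.47% risen and 5.29% fallen. Of 29 jasmonate probe sets 1 rose (3.45%) and 2 fell (6.90%), and of 18 for salicylate defence 3 (16.7%) and 2 (11.1%). Of 18 rapid stress regulators 3 rose and 3 fell (16.7% each), and of 9 for the raffinose pathway 0 and 2 (22.2%). Of 36 starch metabolism probe sets 2 rose (5.56%, with 4 or 5 rises under the other scalings) and 1 fell (2.78%). Of 15 for nitrate assimilation 1 rose (6.67%) and 2 fell (13.3%), and of 18 for iron 3 (16.7%) and 2 (11.1%). Of 18 expansins and xyloglucan transferases, which loosen the wall, 6 rose (33.3%) and 3 fell (16.7%). Of 20 SR splicing factors 1 rose and 2 fell. None of 22 ribosome biogenesis factors and none of 15 reference genes passed the limit.

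Among oxidative stress enzymes, APX2, a heat-inducible ascorbate peroxidase, fell from 9.94 to 8.23 (unprimed 2.80 in both hours), and the glutathione transferases GSTU24 and GSTU25 rose from 10.93 to 13.04 and from 6.50 to 8.51. HRE2, a hypoxia-responsive ethylene factor, fell from 5.40 to 2.32, and HRE1 rose from 6.69 to 8.02. Of 23 probe sets of reactive oxygen enzymes 2 rose (8.70%) and 1 fell (4.35%), where 5.47% and 5.29% of all probe sets did. Of 14 low-oxygen probe sets 2 rose and 2 fell (14.3% each). The stress factor WRKY40 rose from 5.77 to 8.05 in primed seedlings and fell from 5.07 to 3.94 in unprimed ones.

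Deep falls outside the heat lists included transcripts at the floor in unprimed seedlings. EMB3111, a pentatricopeptide repeat protein, read 10.62 and 5.52 in primed seedlings (34.3-fold lower), and AT4G24410, of unknown function, read 10.74 and 5.79. Both were at 2.0 in all unprimed arrays and in primed seedlings at 24 h. AT3G19680, of unknown function, read 9.96 and 5.05, with 4.24 and 3.74 in unprimed seedlings, and the zinc finger gene AT5G44260 read 8.11 and 4.31 and also fell in unprimed ones, from 5.41 to 3.86. RAS1, a regulator of salt and abscisic acid responses, read 9.08 and 4.48 against 2.14 and 2.15, and the stress-induced F-box gene FBS1 read 9.94 and 5.86 against 2.25 and 2.50. AT3G16040, of unknown function, went from 10.09 to 6.04, with 2.51 and 2.62 in unprimed seedlings. PTR5, a peptide transporter, fell from 11.06 to 7.30, with 4.15 and 5.04 in unprimed seedlings. The zinc finger gene AT3G46070 went from 8.14 to 2.04 and AT1G07330 from 8.63 to 2.66.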

How the data were processed

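RNA of whole Col-0 seedlings was measured on 8 ATH1 arrays, 1 per condition. The deposited values are log2 signals that the authors had normalized. The processing notes name GCRMA and RMA with no version, and no source used here gives a build, so no coordinates are printed. A second deposited table was equal in every cell, and the deposited columns of primed minus unprimed differences were not used. From 22810 probe sets 64 controls were left out. Of the 22746 others 21194 read 1 gene, 1078 several and 474 none, and 20776 of 21021 single genes matched RefSeq symbols (TAIR10.1).

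The primed 8 h value minus the primed 4 h value was calculated per probe set, rounded to 2 decimals and counted from 1 in size, and likewise for unprimed seedlings, with Python 3.11.15 and pandas 2.3.3. The counting was tested on simulated data with planted changes past the limit and little noise. That checks the counting only, and not how reliable a 2-fold difference between 2 arrays is. With 1 array per condition no test was made, and that number limits the precision. The 40 lists (717 genes and all single-locus organelle probe sets) were described by counts and medians. Of the listed genes 16 have no probe set. The members and lists were chosen with earlier results of these data known. Named genes are the 10 highest and 10 lowest differences among probe sets of at least 4 in both arrays, 5 each among the rest, 5 each for the primed less the unprimed change, at most 4 members a list, those of greatest difference, all chaperone, HSF and FtsH members, and thermomemory components. Others named were chosen after their values were seen. Alternatives were quantile normalization, centring on the median or the mean of the reference genes, leaving out probe sets below 6, a floor at the 30th percentile, probe sets of 1 gene, the second table and 1.5-fold and 4-fold limits.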

Additional observations from a re-analysis of the deposited data

Results flagged for a closer look

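Among the 254 probe sets the naming rule took, 21 moved at least 2-fold in opposite directions from 4 h to 8 h in primed and unprimed seedlings, each arm being 1 pair of arrays. The difference between the arms was not tested. The rule took probe sets partly for large differences between the arms, which raises this number. Over all 22746 probe sets 52 rose in primed and fell in unprimed seedlings, and 39 did the reverse. Of the 21 named ones, 10 rose after priming. CHX17, a cation/proton exchanger gene, rose by 5.04 on the log2 scale in primed seedlings, from 5.54 to 10.58, while unprimed seedlings went from 12.10 to 9.52. The primed difference of AT3G26610, a polygalacturonase-type gene, was 3.68, that of DIN11 2.90 and that of SESA2, a seed storage albumin, 2.61. PPDK had 2.60, BCAT2 2.32, WRKY40 2.28, GSTU25 2.01, AT1G17960, a threonyl-tRNA synthetase gene, 1.61 and COR15B 1.55.

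The other 11 fell after priming and rose in unprimed seedlings. HSP70-3 had a primed difference of -1.21, the inositol phosphate synthase gene MIPS2 -1.56, the iron-sulfur protein gene NEET -1.69 and SPX1 -1.74. The clock genes LNK2 and RVE7 had -1.77 and -1.80, and LEA7 had -1.96. In the heat and endoplasmic reticulum lists TIN1 had -2.20, SARA1A -2.34 and HSFA2 -3.24, and the phloem protein gene PP2-A12 had -3.25. For HSFA2 the unprimed values, 3.11 and 4.53, lay far below the primed 13.52 and 10.28.

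The control probe set for 25S ribosomal RNA, which no comparison used, read 3.69 in the primed 4 h array and 2.04 in the unprimed arrays.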

How the results depend on the processing

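Leaving out a replicate was not possible with 1 array per condition. No paired analysis was possible because each condition has 1 array. Centring on the median of the reference genes changed the unprimed counts to 2084 higher and 76 lower and those of the primed less the unprimed change to 773 and 3186, and moved the median of all probe sets by 0.16 in primed and 0.60 in unprimed seedlings. Centring on their mean, added after the data had been seen because that median moved with 1 gene, moved the medians by 0.08 and 0.06. Leaving out probe sets below 6 left 192 lower in unprimed seedlings, and 946 higher and 869 lower of 13269 in primed ones. At 1.5-fold the counts were 2477 higher and 2541 lower in primed seedlings, 1186 and 1118 in unprimed ones, and 3098 and 3024 for the primed less the unprimed change. At 4-fold they were 310 and 300, 113 and 42, and 369 and 399. Quantile normalization, probe sets of 1 gene, a floor raised to 2.39 and the second table kept each of the 6 counts over all probe sets within 1.5-fold. Of the 254 named probe sets 8 left the 2-fold limit and 11 reached it with the median centring, 2 and 7 with the mean centring and 2 and 2 after quantile normalization. Counts of short lists moved further, as for the proteasome, from 1 rise to 5, 7 and 5 under quantile normalization and the median and mean centrings. Of the 40 list medians 7 moved by 0.31 or more, the spread of the unprimed 48 h less 24 h differences, without dim probe sets, and 1 with probe sets of 1 gene. Of the 254 named probe sets 14 moved so with the raised floor. Promoter motifs were not run. A value at 2.0 has no order below it, and with 1 array per condition no difference has an error.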

Other observations

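A group of transcripts was seen in primed seedlings early and at no time in unprimed ones. Of the 1203 fallen probe sets 145 (12.1%) lay at the floor in all 4 unprimed arrays, as did 14 (1.12%) of the risen ones and 5686 of all 22746 probe sets. Both shares lay below that of all probe sets. The values of the 145 at 4 h ran from 3.0 over a median of 5.36 to 13.26, and the median at 8 h was 2.05. No value lies below 2.0, so a 2-fold fall needs at least 3.0 at 4 h. The lowest 4 h value and a lower level at 8 h thus follow from the choice of the set. At 24 h 131 of the 145 were back at the floor. Of the 145, 108 read 1 gene and 15 of these are mitochondrial loci. The brightest was AT1G71000, a DnaJ-domain protein gene, which read 13.26 and then 10.80 in the primed 4 h and 8 h arrays and 2.15 at 24 h.

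Regulator families, looked up by words of the annotation after their values had been seen, are described by their counts, with no test between families, where 5.47% of all probe sets rose and 5.29% fell. WRKY factors, which act in defence and stress, had 6 rises (9.84%) and 0 falls among 61 probe sets, and NAC factors 11 (16.4%) and 6 (8.96%) among 67. AP2 domain factors, which include the DREB and ERF groups, had 7 (10.9%) and 10 (15.6%) among 64. CRF7, a cytokinin response factor, read 13.57 at 4 h and 10.81 at 8 h, and AT5G51190, an ERF gene, 4.31 and 7.84. F-box proteins, which choose targets for breakdown, had 7 rises (1.86%) and 23 falls (6.12%) among 376. Of these 376, 238 were at the floor in both primed arrays and could not pass the limit, so all 23 falls lay among the other 138. Of all probe sets above the floor in at least 1 primed array 7.31% rose and 7.06% fell. DnaJ proteins, partners of HSP70, had 1 (1.03%) and 12 (12.4%) among 97. Of 149 cytosolic ribosomal protein probe sets 0 rose and 1 fell, and of 349 for pentatricopeptide repeat proteins, which act on organelle RNA, 14 rose (4.01%) and 17 fell (4.87%), near the shares over all probe sets.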
